A study of Mus musculus with 384 samples.

Results

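The mitochondrial ribosomal protein genes were described in the livers of 192 mice. They were taken as the protein-coding genes, in the GENCODE M21 mouse annotation, whose symbol begins with Mrpl or Mrps followed by a digit. Of 78 annotated genes of that form, 77 had a row among the 21454 genes of the table, and Mrpl33 was not analysed here. All 77 passed the filter on low values, as did 14602 of all genes, which were then tested. Of the 77 members, 50 belong to the large subunit of the mitochondrial ribosome and 26 to the small subunit. The last, Mrps36, carries a ribosomal symbol but is known as a subunit of the oxoglutarate dehydrogenase complex.

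Liver mRNA was sequenced from Diversity Outbred mice of genotype wild type. This stock is an outbred population that mixes the genomes of several inbred strains, so each animal carries its own mixture. Animals were killed at 26 weeks of age, after a high-fat diet (22% fat by weight) or standard chow (6% fat by weight) since weaning. There were 46 males on high fat, 48 males on chow, 48 females on high fat and 50 females on chow, below called M high fat, M chow, F high fat and F chow. Each mouse was sequenced in 2 technical repeats that were combined into a single column before deposit, so a mouse is the unit of replication and no technical error can be read from the values. The estimated depth was about 9800000 reads in the lowest mouse, 14200000 in the median mouse and 17900000 in the highest. A female on chow had Xist below the highest male, 9 mice carried summed pancreas acinar markers over 10 times the median, and 10 mice were set apart as least correlated with the rest (5 M high fat, 4 M chow, 1 F high fat and 0 F chow). The results were recomputed without each of these sets, and a change is given beside the result it touches.

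Mitochondria keep a small genome that encodes a few hydrophobic subunits of the respiratory chain and of ATP synthase. Those proteins are made inside the organelle by a dedicated ribosome whose RNAs come from mitochondrial DNA, while all of its proteins are encoded in the nucleus, made in the cytosol and imported. Some of these proteins have counterparts in the bacterial ribosome and others are found in mitochondria alone. The liver is rich in mitochondria, and its hepatocytes use them for fatty acid oxidation, ketogenesis and the urea cycle. Transcription factors known to act at genes for mitochondrial proteins include NRF1, the ETS-family factor GABP and YY1.

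To show what lies at the start of these genes, the 300-base windows (250 bases before to 50 bases after the RefSeq start, assembly GRCm38.p6) of 5 members that carry the results below are printed 5′ to 3′ on the strand of the gene. Capitals mark every match to CCGGAAG (ETS), AAGATGGC (YY1) or GCATGCGC (NRF1) on either strand. The NRF1 letters and their reverse complement overlap by 6 bases where GCGCATGCGC occurs, and such a run was counted as a match on each strand. Mrps22, at chr9:98601630-98601929 on the minus strand, and Mrps27, at chr13:99344536-99344835 on the plus strand, were lower on high fat. Mrps18b, at chr17:35916391-35916690 on the minus strand, was higher in males. Mrpl9, at chr3:94443086-94443385 on the plus strand, had a diet difference that depended on sex. Mrpl52, at chr14:54426659-54426958 on the plus strand, was part of the most strongly correlated pair.
Mrps22: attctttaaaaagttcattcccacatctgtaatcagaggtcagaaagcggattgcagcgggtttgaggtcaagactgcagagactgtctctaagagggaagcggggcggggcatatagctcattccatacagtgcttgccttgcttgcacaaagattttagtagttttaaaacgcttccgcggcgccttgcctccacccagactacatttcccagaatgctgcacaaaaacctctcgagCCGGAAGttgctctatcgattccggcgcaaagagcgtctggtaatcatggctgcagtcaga
Mrps27: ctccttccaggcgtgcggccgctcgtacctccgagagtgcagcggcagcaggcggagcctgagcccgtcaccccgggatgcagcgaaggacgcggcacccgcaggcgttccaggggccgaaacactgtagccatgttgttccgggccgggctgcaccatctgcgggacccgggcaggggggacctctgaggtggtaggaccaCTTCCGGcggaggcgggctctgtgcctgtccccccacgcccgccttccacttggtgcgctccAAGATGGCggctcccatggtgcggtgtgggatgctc
Mrps18b: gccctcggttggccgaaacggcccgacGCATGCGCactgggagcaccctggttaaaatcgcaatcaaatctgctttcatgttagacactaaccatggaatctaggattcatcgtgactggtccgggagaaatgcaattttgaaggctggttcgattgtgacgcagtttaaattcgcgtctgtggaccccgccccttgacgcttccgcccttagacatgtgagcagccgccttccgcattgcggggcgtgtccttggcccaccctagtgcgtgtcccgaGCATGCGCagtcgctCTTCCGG
Mrpl9: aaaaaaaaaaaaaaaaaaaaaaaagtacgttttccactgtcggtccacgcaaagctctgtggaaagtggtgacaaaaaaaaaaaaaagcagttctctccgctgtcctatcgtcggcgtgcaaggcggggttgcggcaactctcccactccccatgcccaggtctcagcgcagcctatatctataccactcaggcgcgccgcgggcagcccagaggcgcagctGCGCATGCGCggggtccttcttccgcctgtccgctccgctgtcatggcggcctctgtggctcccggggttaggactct
Mrpl52: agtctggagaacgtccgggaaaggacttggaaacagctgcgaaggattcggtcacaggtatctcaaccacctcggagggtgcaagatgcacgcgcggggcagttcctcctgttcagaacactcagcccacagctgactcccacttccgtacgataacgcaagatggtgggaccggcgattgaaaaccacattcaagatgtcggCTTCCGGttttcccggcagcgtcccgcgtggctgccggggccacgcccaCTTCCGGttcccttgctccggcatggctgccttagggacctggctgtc

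The ETS word began at position -11 from the start in Mrps22. In Mrps27 it began at -48 on the opposite strand, followed by a YY1 word at 14. Mrps18b held an NRF1 word at -223 and another at 28, with an ETS word at 43 that ends the window. Mrpl9 held the overlapping NRF1 words at -28 and -26, and Mrpl52 held ETS words at -47 and 2. A gene was counted where any of its windows held the word. Among the 68 members with a window, 36.8% had the ETS word, compared with 18.8% of the 10848 tested genes with a window. Over all 27025 gene symbols with a window the share was 9.93%. The YY1 word was in 17.6% of members, 4.95% of tested genes and 3.19% of all symbols. The NRF1 word was in 10.3% of members, 5.57% of tested genes and 3.05% of all symbols. For the E-box CACGTG, which MYC and other factors are known to bind, the shares were 7.35%, 11.4% and 8.09%. These are counts of letters and not of binding. The median log2 difference of high fat minus chow was -0.06 in the 25 members with the ETS word and -0.07 in the 43 without it, and -0.09 in the 7 with the NRF1 word and -0.07 in the 61 without it. It was -0.06 in the 12 with the YY1 word and -0.07 in the 56 without it, and -0.02 in the 5 with the E-box and -0.07 in the 63 without it.

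Levels were compared between genes only as signal per kilobase of the median coding transcript, where signal is the authors' upper-quartile normalized value, which is not divided by length. Mrpl12, the stalk protein that recruits translation factors to the ribosome, had the highest level at 14.7 per kilobase. Its group means were 14.9 in M high fat, 15.6 in M chow, 14.5 in F high fat and 14.0 in F chow. Mrpl17 (11.6), Mrpl14 (11.2), Mrpl30 (11.0) and Mrpl52 (10.6) followed, all of the large subunit. The lowest levels per kilobase were those of Mrpl19 (0.600), Mrps25 (0.752), Mrps26 (0.775), Mrpl47 (0.777) and Mrpl57 (0.904). Most of these low members have long annotated transcripts, 6073 bases for Mrps25 and 5000 bases for Mrpl19, against a median of 1056 bases over the members. With the union of all exons as the length, Mrpl17 moved to rank 68 of 77 and Mrpl30 to rank 43, so their place depends on which length is used.

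**Figure D1:**
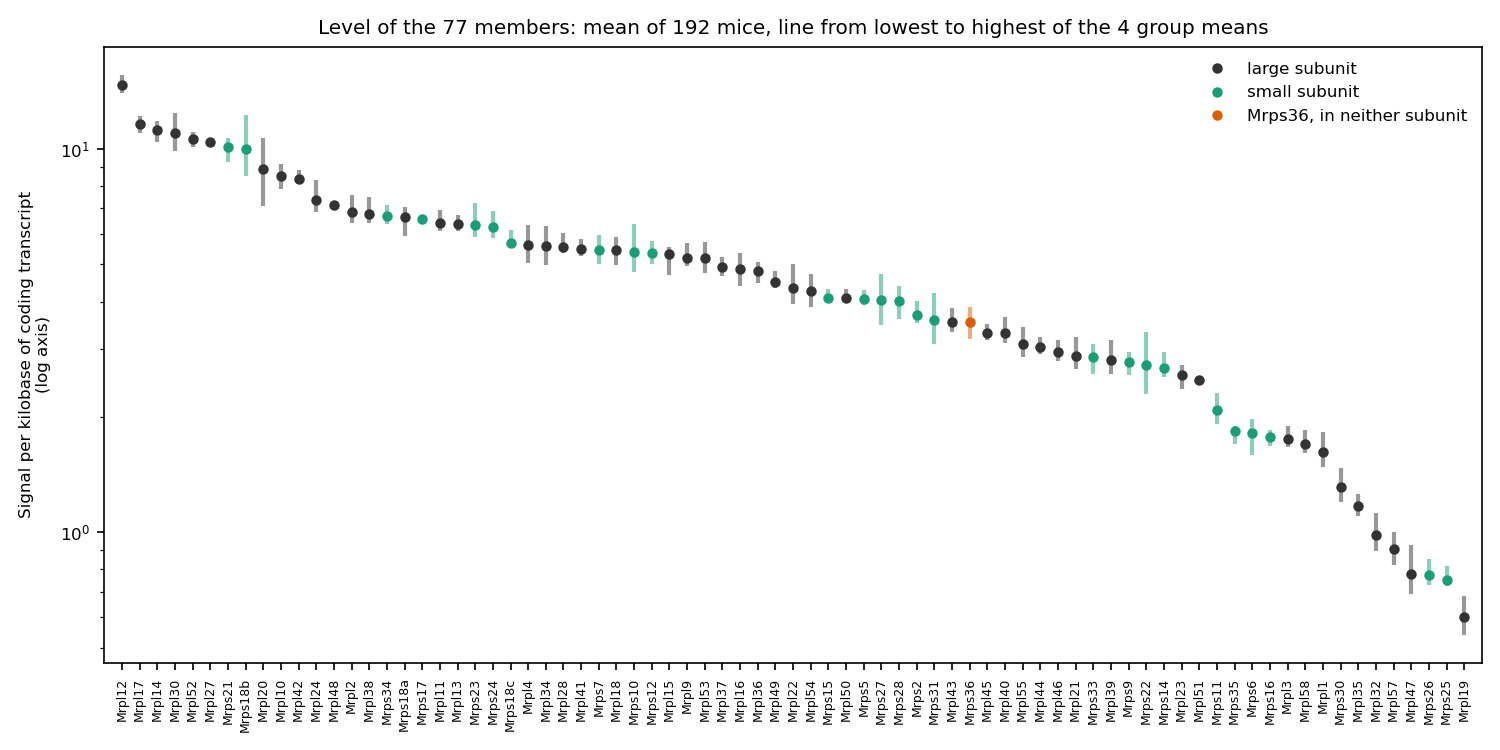
Signal per kilobase of coding transcript (log axis) for each of the 77 members, ordered by their mean over 192 mice. Points are means, coloured by subunit, and each line runs from the lowest to the highest of the 4 group means. Mrpl12 is highest at 14.7 and Mrpl19 lowest at 0.600, and for most members the lines are short beside the differences between genes.

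Summed over the 77 members, the signal in M high fat was between 315.2 and 573.8 with a median of 403.9, and in M chow between 389.4 and 499.1 with a median of 447.4. In F high fat it was between 321.9 and 532.0 with a median of 389.3, and in F chow between 329.6 and 477.3 with a median of 398.3. The means were 410.5 ± 46.2 (SD, n = 46) in M high fat, 446.5 ± 30.1 (SD, n = 48) in M chow, 395.1 ± 45.2 (SD, n = 48) in F high fat and 394.9 ± 31.7 (SD, n = 50) in F chow. The ranges of all 4 groups overlapped, and M chow had the highest mean. As a share of all signal in a mouse the order differed, with 0.181% in M high fat, 0.174% in M chow, 0.199% in F high fat and 0.184% in F chow. In whole liver, fewer cells of a type and less RNA per cell cannot be told apart.

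The scale of the table mattered for most counts of called members and for the median differences over members. The deposited values are scaled to the upper quartile of each mouse, and on that scale the median of all tested genes was itself lower on high fat (-0.07 on the log2 scale) and higher in males (0.07). A median-of-ratios rescaling, which divides each mouse by the median ratio of its genes to their geometric mean, removed most of this. It moved the median of all tested genes by 0.07 for diet and by -0.08 for M minus F. Within males it moved the diet median by 0.10, and among chow mice it moved the median of M minus F by -0.11. The mean rescaling factor was 1.00 ± 0.0559 (SD, n = 46) in M high fat, 1.08 ± 0.0429 (SD, n = 48) in M chow, 0.961 ± 0.0476 (SD, n = 48) in F high fat and 0.993 ± 0.0386 (SD, n = 50) in F chow. Each count below is therefore given on the deposited scale and after this rescaling, and a gene is said to have risen or fallen only where it passed the test in 1 direction on 3 scales, namely the deposited one, the median-of-ratios one and that of quantile-normalized values. The test was limma with a trend on log2(signal + 0.0629), with the 4 groups and the outbreeding generation label in the fit and Benjamini-Hochberg adjustment over the 14602 genes. A log2 difference on this scale understates the change of low genes.

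High fat was first compared with chow, averaged over males and females. On the deposited scale 41 of 77 members were lower on high fat and 5 were higher, while 41.9% of all tested genes were lower and 15.0% higher. After rescaling, 9 members were lower and 19 higher, with 22.9% of all genes lower and 24.9% higher. On the 3 scales together 8 members fell and 5 rose, where the shares of all tested genes were 19.3% for a fall and 12.9% for a rise. The median member difference was -0.07 on the deposited scale and 0.00 after rescaling, against -0.07 and 0.01 over all tested genes. In the 97 mice of outbreeding generation G11L1 alone 22 members were lower and 2 higher on the deposited scale, and in the 95 of G11L2 alone 28 were lower and 2 higher. The shares of all tested genes within a generation are not given here, so these counts cannot be set beside a background. Members were thus called lower in 53.2% of cases on the deposited scale but in 11.7% after rescaling.

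The 3 small-subunit members that fell, Mrps22, Mrps27 and Mrps31, are proteins with no bacterial counterpart. Mrps22, in which human variants are known to cause mitochondrial disease, had the smallest adjusted p of the members that fell. Its signal was 2.33 to 4.65 in M high fat with a median of 3.14, against 2.92 to 5.95 in M chow with a median of 3.92. In females it was 1.77 to 4.48 on high fat with a median of 2.68, against 2.33 to 4.47 on chow with a median of 3.14. The high-fat mice were lower as groups within each sex, but the groups overlapped. The log2 difference was -0.28 ± 0.034 (SE), adjusted p = 1.37e-12 with limma, and it was -0.20 after rescaling.

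Mrps27, a pentatricopeptide-repeat protein of the small subunit, had a signal of 3.61 to 9.37 in M high fat with a median of 5.29, against 4.69 to 9.31 in M chow with a median of 6.34. In females it was 3.12 to 6.44 on high fat with a median of 4.91, against 3.74 to 8.07 on chow with a median of 5.40. The groups overlapped here too. Its log2 difference was -0.22 on the deposited scale and -0.145 after rescaling. Mrps31, also of the small subunit, had a mean of 5.40 ± 0.860 (SD, n = 46) in M high fat and 6.39 ± 0.937 (SD, n = 48) in M chow, with a log2 difference over both sexes of -0.21. All 3 were called lower in males alone and in females alone, on the deposited scale and after rescaling.

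Among large-subunit members, Mrpl47, the counterpart of bacterial L29, had a signal of 1.54 to 4.04 in M high fat with a median of 2.43, against 2.06 to 4.27 in M chow with a median of 3.09. In females it was 1.70 to 3.38 on high fat with a median of 2.33, against 1.81 to 3.30 on chow with a median of 2.55. The ranges overlapped in both sexes, and the log2 difference was -0.23 ± 0.034 (SE), adjusted p = 2.19e-09 with limma. Mrpl24, the counterpart of bacterial L24, averaged 8.51 ± 1.16 (SD, n = 46) in M high fat and 10.2 ± 0.827 (SD, n = 48) in M chow, and its log2 difference over both sexes was -0.18 (adjusted p = 9.72e-12 with limma). Mrpl39, a mitochondria-specific protein, Mrpl1, of the L1 stalk, and Mrpl58 had log2 differences of -0.16, -0.15 and -0.15. Mrpl58 is a peptidyl-tRNA hydrolase built into the large subunit that releases chains from stalled ribosomes. In females Mrpl24 averaged 8.42 ± 1.12 (SD, n = 48) on high fat and 9.01 ± 0.890 (SD, n = 50) on chow. All 5 fell on the 3 scales in the fit averaged over the sexes, and each was also called lower on the 3 scales in males alone but not in females alone. In males alone 10 members were called so, beside 13.5% of all tested genes, and in females alone 3, Mrps22, Mrps27 and Mrps31, beside 12.8%. A call in 1 sex alone does not show a difference between the sexes, which the interaction below tests. Mrpl32 and Mrpl35 were also among the 10 lower members with the smallest p on the deposited scale (log2 differences -0.12 and -0.13), but Mrpl32 was not called after rescaling (adjusted p = 0.0674 with limma).

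The member with the largest positive diet difference was the one that is not a ribosomal protein in function. Mrps36, the oxoglutarate dehydrogenase subunit, had a signal of 1.28 to 3.50 in M high fat with a median of 2.42, against 1.39 to 2.98 in M chow with a median of 2.14. In females it was 1.34 to 4.30 on high fat with a median of 2.51, against 1.24 to 3.35 on chow with a median of 1.98. The ranges overlapped, and its log2 difference was 0.21 ± 0.046 (SE), adjusted p = 2.22e-05 with limma. Mrps6, of the small subunit, averaged 1.67 ± 0.403 (SD, n = 46) in M high fat and 1.54 ± 0.378 (SD, n = 48) in M chow. In females it averaged 1.63 ± 0.360 (SD, n = 48) on high fat and 1.34 ± 0.252 (SD, n = 50) on chow, and its log2 difference was 0.19 ± 0.043 (SE). Mrpl54 (0.10), Mrps18a (0.08) and Mrps28 (0.07) rose by smaller log2 differences, and without the 10 least correlated mice the adjusted p of Mrps18a was 0.116 with limma on the deposited scale.

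**Figure D2:**
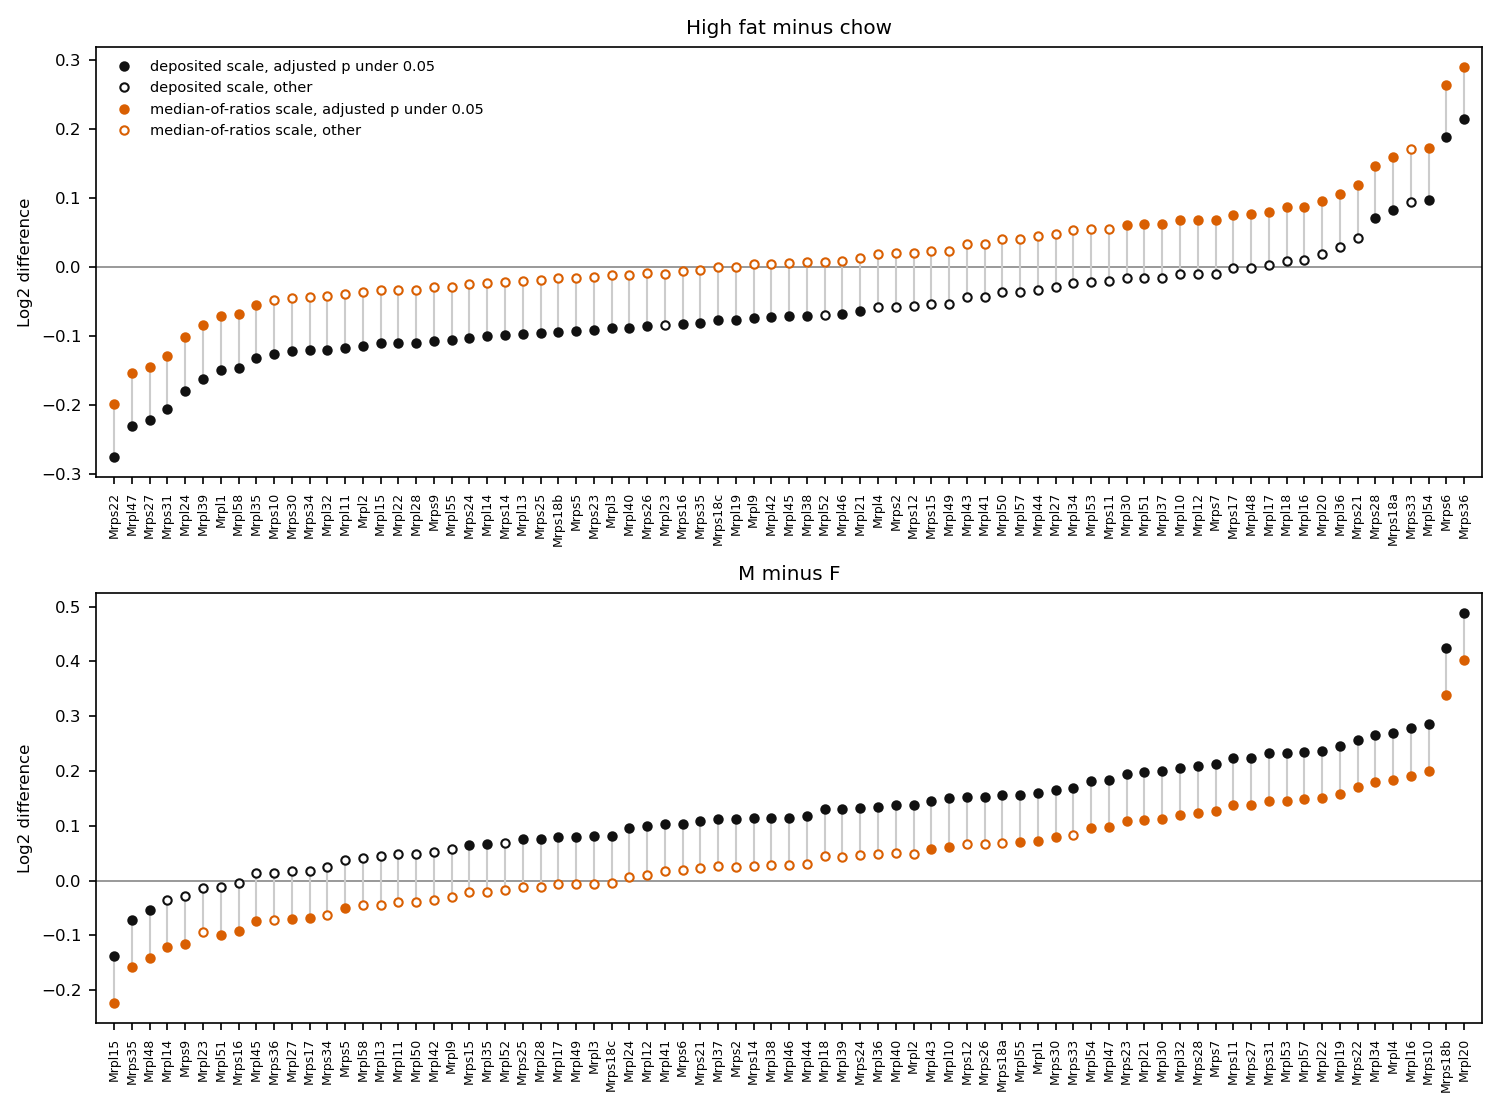
Log2 difference of each of the 77 members for high fat minus chow (upper panel) and M minus F (lower panel), in order of the deposited-scale value. Black points are on the deposited scale and orange points after median-of-ratios rescaling, joined by a grey line, and filled points had an adjusted p under 0.05. The rescaled values lie above the deposited ones for diet, where 5 members were called higher on the deposited scale and 19 after rescaling, and below them for M minus F, where 56 and 27 were called higher.

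Both subunits and both origins held members of each kind. On the deposited scale 25 of 50 large-subunit and 16 of 26 small-subunit members were lower on high fat, and 2 in each were higher. After rescaling these were 6 of 50 and 3 of 26 lower, and 13 of 50 and 5 of 26 higher. Of the 45 members with a bacterial counterpart 24 were lower and 2 higher on the deposited scale, and of the 31 mitochondria-specific members 17 were lower and 2 higher. After rescaling the same groups had 4 and 5 lower members and 13 and 5 higher ones. In percent, 50.0% of large-subunit and 61.5% of small-subunit members were lower on the deposited scale, beside the 41.9% of all tested genes given above, and 12.0% and 11.5% were lower after rescaling, beside 22.9%. The differences between subunits and between origins were not tested.

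In the comparison of males with females, averaged over diets, members were mostly higher in males on the deposited scale. There 56 of 77 were higher and 3 lower, beside 45.0% of all tested genes higher and 23.5% lower. After rescaling 27 were higher and 11 lower, beside 30.4% and 33.5% of all genes. On the 3 scales together 25 members were higher and 3 lower in males, where the shares of all tested genes were 28.9% and 21.8%. The median member difference was 0.115 on the deposited scale and 0.03 after rescaling, against 0.07 and -0.01 over all tested genes. In G11L1 alone 54 members were higher and 1 lower on the deposited scale, and in G11L2 alone 36 were higher and 3 lower. As for diet, no share of all genes within a generation stands beside these counts.

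Mrpl20, the counterpart of bacterial L20, had the largest difference between the sexes. Its signal was 3.56 to 7.51 in M high fat with a median of 4.90, against 2.54 to 6.06 in F high fat with a median of 3.72. On chow it was 3.25 to 7.88 in males with a median of 5.20, against 2.59 to 5.36 in females with a median of 3.41. The lowest males overlapped the females, while both male medians lay well above both female medians. The log2 difference was 0.49 ± 0.037 (SE), adjusted p = 1.68e-27 with limma, and it was 0.40 after rescaling.

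Mrps18b showed the next largest difference. It is 1 of 3 proteins related to bacterial S18 that mammalian mitochondria carry, with Mrps18a and Mrps18c. Its signal was 5.79 to 13.4 in M high fat with a median of 8.24, against 5.43 to 9.87 in F high fat with a median of 6.80. On chow it was 7.53 to 13.8 in males with a median of 9.69, against 4.80 to 9.80 in females with a median of 6.95. The groups overlapped, and the log2 difference was 0.425 ± 0.031 (SE), adjusted p = 5.25e-29 with limma. Its paralog Mrps18c differed by 0.08 on the deposited scale and by -0.01 after rescaling, and Mrps18a by 0.16 and 0.07 (adjusted p = 0.0591 after rescaling with limma). For diet, Mrps18a rose on the 3 scales, while Mrps18b and Mrps18c were lower on the deposited scale alone (-0.09 and -0.08), and their differences were -0.02 and 0.00 after rescaling. Of the 100-base words of Mrps18b transcripts, 24.5% also occur in other genes, 21.1% in the antisense gene Gm16279, and the labels do not say that the library kit marks strand, so reads of the 2 strands may not be told apart.

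Other members higher in males included Mrps10 (log2 difference 0.29), Mrpl16 (0.28), Mrpl4 (0.27), Mrpl19 (0.25), Mrpl22 (0.24), Mrps7 (0.21), Mrpl32 (0.21) and Mrpl21 (0.20). Mrpl4 and Mrpl22 are counterparts of the bacterial proteins that line the exit tunnel, and Mrps10 and Mrps7 sit in the head of the small subunit. Each of these 8 was higher in males on the 3 scales. The 3 members lower in males were Mrpl15, Mrps35 and Mrpl48. Mrpl15, the counterpart of bacterial L15, had a mean signal of 8.89 ± 1.52 (SD, n = 46) in M high fat and 10.5 ± 1.85 (SD, n = 48) in F high fat, and of 10.3 ± 1.47 (SD, n = 48) in M chow and 10.5 ± 1.33 (SD, n = 50) in F chow. Its log2 difference was -0.14 on the deposited scale and -0.22 after rescaling, and those of Mrps35 and Mrpl48 were -0.07 and -0.05 on the deposited scale. Without the 10 least correlated mice 1 member in place of 3 was called lower in males on the deposited scale. The share of all tested genes without those mice is not given here.

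**Figure D3:**
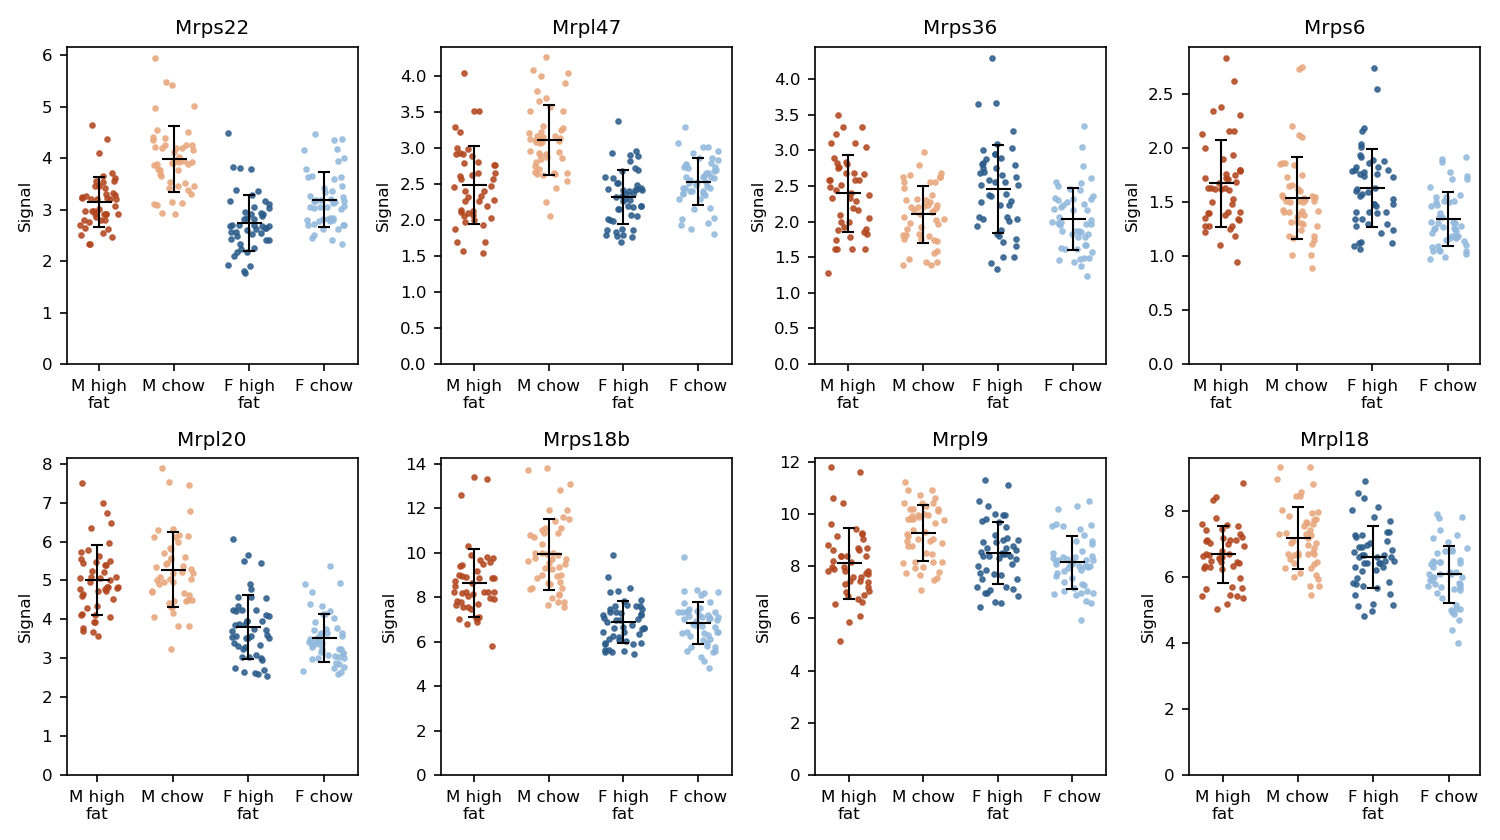
Signal (upper-quartile normalized, not per length) of 8 members in each mouse, in M high fat, M chow, F high fat and F chow from left to right. Each point is a mouse, and black bars are the mean ± SD of the group. Mrps22 and Mrpl47 lie lower on high fat, Mrps36 and Mrps6 higher, Mrpl20 and Mrps18b lie higher in males, and in Mrpl9 and Mrpl18 the 2 diets are ordered differently in males and females, with overlap between groups in all 8 panels.

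The diet difference within males was compared with that within females. In males 48 members were lower on high fat and 1 was higher on the deposited scale, beside 39.8% and 11.4% of all tested genes. After rescaling 14 were lower and 8 higher, beside 16.8% and 19.4%. In females 8 were lower and 6 higher on the deposited scale, beside 23.3% and 10.0% of all genes, and 3 were lower and 17 higher after rescaling, beside 14.7% and 15.0%. The difference itself was tested as an interaction, the diet difference in males minus that in females. On the deposited scale it was negative in 12 members and positive in 0, beside 6.92% and 1.46% of all tested genes. At an unadjusted p under 0.05 it was negative in 39 and positive in 0, beside 18.8% of all genes negative, and after rescaling it was negative in 15, beside 8.72%. In G11L1 mice alone it was negative in 9 members and in G11L2 mice alone in 0. Shares of all genes within a generation are again not given here. After rescaling the interaction was negative in 3 and positive in 0 members, beside 2.10% and 2.13% of all genes. The 3 members Mrpl9, Mrpl30 and Mrpl18 were negative on the 3 scales, where the shares of all tested genes were 1.91% negative and 1.14% positive. The median member interaction was -0.115 on the deposited scale and -0.05 after rescaling, against -0.05 and 0.01 over all tested genes.

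Mrpl9, the counterpart of bacterial L9, had a signal of 5.12 to 11.8 in M high fat with a median of 7.92, against 7.08 to 11.2 in M chow with a median of 9.33. In females it was 6.43 to 11.3 on high fat with a median of 8.46, against 5.93 to 10.5 on chow with a median of 8.07. High-fat males thus had the lowest median and chow males the highest. The interaction was -0.26 ± 0.057 (SE), adjusted p = 0.00111 with limma, and -0.20 after rescaling. In males alone the diet difference was -0.20 (adjusted p = 9.80e-06 with limma), and in females alone it was 0.06 (adjusted p = 0.284).

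Mrpl30, the counterpart of bacterial L30, had a mean signal of 7.45 ± 1.13 (SD, n = 46) in M high fat and 8.19 ± 0.944 (SD, n = 48) in M chow, and of 7.07 ± 1.10 (SD, n = 48) in F high fat and 6.54 ± 0.742 (SD, n = 50) in F chow. Its diet difference was -0.14 in males and 0.10 in females on the deposited scale, and -0.03 and 0.15 after rescaling, and the male difference was not called after rescaling. Mrpl18, of the central protuberance of the large subunit, had a mean of 6.68 ± 0.856 (SD, n = 46) in M high fat and 7.18 ± 0.948 (SD, n = 48) in M chow, and of 6.60 ± 0.944 (SD, n = 48) in F high fat and 6.08 ± 0.858 (SD, n = 50) in F chow. Its diet difference was -0.10 in males and 0.12 in females, and 0.01 and 0.16 after rescaling. All 3 are large-subunit proteins with bacterial counterparts. The other 9 members with an interaction on the deposited scale were Mrpl38, Mrps23, Mrpl24, Mrps18b, Mrpl15, Mrpl17, Mrps10, Mrpl47 and Mrps35, of which 0 were called after rescaling. The adjusted p for the interaction of Mrps10 on the deposited scale was 0.0518 with limma without the 10 least correlated mice.

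The outbreeding generation label, G11L1 or G11L2, was a term in the same fit. With limma 0 members differed between the labels at an adjusted p under 0.05 on the deposited scale, and 16 were higher in G11L2 at an unadjusted p under 0.05, beside 7.14% of all tested genes. At an adjusted p under 0.05, 4 were higher in G11L2 after rescaling, beside 1.06% of all genes, and 1 with quantile-normalized values. For that last count the share of all genes is not given here.

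Members varied less between mice of a group than most genes did. The residual SD of the fit had a median of 0.199 on the log2 scale over the members, against 0.325 over the 14602 tested genes, and 3 of the 77 members exceeded 0.325. The smallest residual SDs were those of Mrpl24 (0.159), Mrpl17 (0.160), Mrpl48 (0.163), Mrpl32 (0.164) and Mrpl37 (0.170). The largest were those of Mrpl23 (1.43), Mrps33 (0.548), Mrpl34 (0.335), Mrps36 (0.316) and Mrpl53 (0.302). This comparison was not matched on level. In a test of the absolute deviation of each mouse from the median of its group, 0 members were more spread and 0 less spread on high fat than on chow at an adjusted p under 0.05 with limma, while 1.86% and 0.363% of all tested genes were. At an unadjusted p under 0.05, 20 members were more spread on high fat and 1 less, beside 12.1% and 3.32% of all genes, and after rescaling 13 were more spread. For that rescaled count the share of all genes is not given here. For males against females the counts were again 0 and 0, with 4.27% of all genes more spread and 0.623% less spread in males, and 4 members more spread in males at an unadjusted p under 0.05, beside 15.3% of all genes.

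For the 2 members with the largest residual SD, the tested row most opposed to each was looked at. Every gene has a most opposed row, so its presence alone is no trait of these 2. For Mrps36 that row was Naip2, also on chromosome 13 (r = -0.593 on log2 values with group means removed), and it was not followed further. Mrpl23, the counterpart of bacterial L23, had a signal under 1 in 89 of 192 mice, spread over 22 of 46 M high fat, 21 of 48 M chow, 23 of 48 F high fat and 23 of 50 F chow mice. Its processed pseudogene Mrpl23-ps1, on chromosome 2, had a signal under 1 in 86 mice, and in 17 mice both were at 1 or above. Mice thus fell mostly into those with signal on the member and those with signal on the pseudogene, and so no correlation over all mice is given. The sum of the 2 rows was never under 2.21 in any mouse, with a median of 3.33 and a maximum of 5.78. The SD with group means removed was 1.44 on the log2 scale for Mrpl23 and 0.222 for the sum. Of the 100-base words of the pseudogene's transcript, 91.7% also occur in transcripts of Mrpl23 (GENCODE M21 sequences of the reference genome), so a read of 100 bases from those words matches both. The group means of the sum were 3.23 ± 0.487 (SD, n = 46) in M high fat, 3.35 ± 0.441 (SD, n = 48) in M chow, 3.53 ± 0.742 (SD, n = 48) in F high fat and 3.43 ± 0.484 (SD, n = 50) in F chow. The sum did not pass the test for diet (log2 difference -0.01, adjusted p = 0.746 with limma) and was lower in males by a log2 difference of -0.07 (adjusted p = 0.0370 with limma) and of -0.16 after rescaling, whereas Mrpl23 alone gave -0.01 (adjusted p = 0.954). Values of the Mrpl23 row alone are therefore uncertain. Nlrp6, Cd81 and Tmem80, on chromosome 7 like Mrpl23, ran against that row less strongly than the pseudogene did. Ric8a, Cd151, Pkp3, Chid1 and Pgghg, also on chromosome 7, went most with it. Why rows of the same chromosome moved with or against Mrpl23 was not tested.

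Mrps33, a small mitochondria-specific protein of the small subunit, had a signal of 0.548 to 4.62 over the 192 mice. A row whose Ensembl ID has no entry in the annotation used, and which is given no name here, had a signal of 0.239 to 6.52. The 2 rows were negatively correlated over the 192 mice, with Pearson r = -0.645 and Spearman rho = -0.527 on log2 values with group means removed. Without the 2 mice farthest from the median r was -0.652. Within generation G11L1 r was -0.640 and within G11L2 it was -0.656. The group r was -0.509 in M high fat, -0.747 in M chow, -0.490 in F high fat and -0.693 in F chow. The SD of the sum was 0.207, against 0.547 for Mrps33. The partner row was picked after its values were seen, as the row most opposed to Mrps33, so no p-value is given for this pair. The negative r and the smaller SD of the sum are partly a product of that choice. The M minus F difference was 0.17 for Mrps33 alone (adjusted p = 0.0490 with limma, and 0.112 without the 9 mice with high pancreas markers) and 0.13 for the sum (adjusted p = 2.54e-05 with limma), and that of the sum was 0.05 after rescaling (adjusted p = 0.129).

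**Figure D4:**
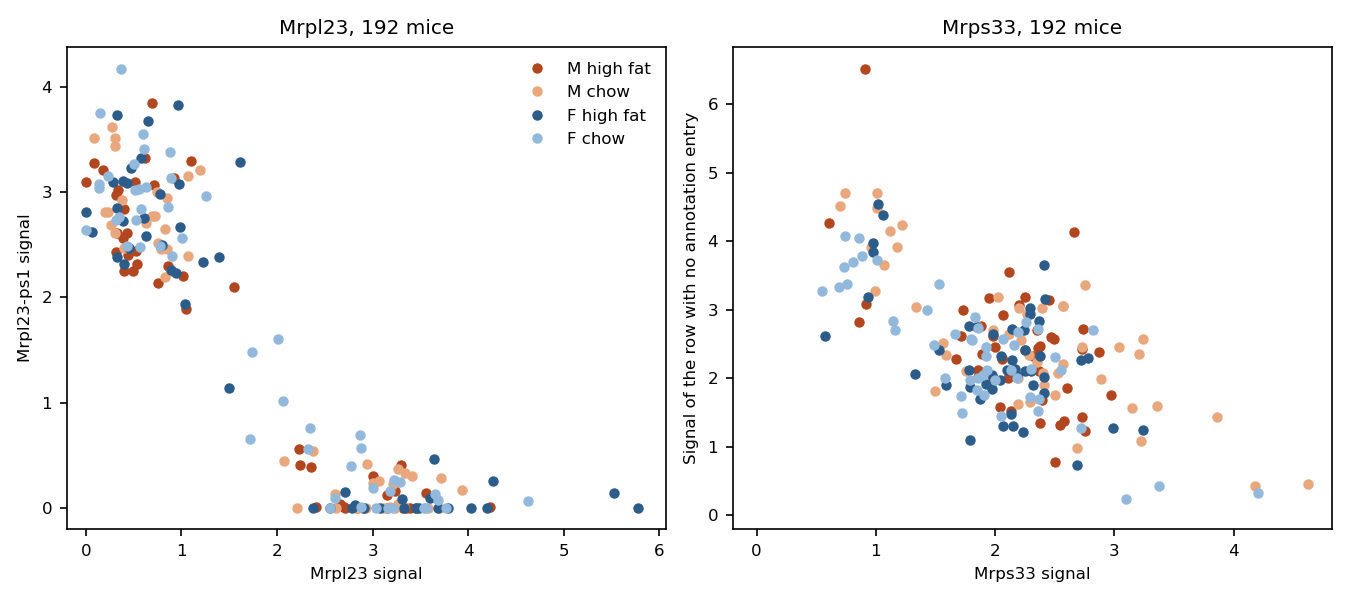
Signal of Mrpl23 against its processed pseudogene Mrpl23-ps1 (left) and of Mrps33 against a row with no annotation entry (right), with a point for each of the 192 mice coloured by group. Mrpl23 was under 1 in 89 mice and the pseudogene in 86, and all 4 groups lie in both clusters.

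Sequence shared with other genes touched other members as well. In 37 of 77 members some 100-base word of the transcripts also occurred in another gene, and in 7 members more than 20% of words did. These were Mrpl53 (75.6%, with Gm42688 on the same strand), Mrps34 (67.0%, most of it with Mapk8ip3 on the opposite strand), Mrps25 (66.4%, with Nr2c2), Mrpl19 (35.2%), Mrpl43 (27.0%), Mrps18b (24.5%) and Mrpl47 (20.2%). Words of all annotated transcripts of a member were pooled, so long transcripts outside the shared stretch lower its share. Mrpl23 thus had 8.97%, most of it with Mrpl23-ps1. Mrps33 had 7.33%, with the processed pseudogene Gm5776 on chromosome 7, which had no row. A share under 20% therefore does not clear a member. In members with shared words the counting could have split or dropped reads, and the rule that was used for this is not given in the sources used here.

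Across mice the members were positively correlated. With group means removed, the median Pearson r over the 2926 pairs of members was 0.384, and 99.7% of pairs were positive, whereas the median over pairs of all tested genes was 0.0225. After median-of-ratios rescaling the median was 0.229, beside -0.00250 for all genes, and after quantile normalization it was 0.242. After rescaling 94.1% of pairs were positive. On the deposited scale 2713 pairs had an adjusted p under 0.05 in a permutation test, and all 2713 were positive. The test used 100000 permutations of mice within groups, and the smallest p it can give is 1e-05. The shares of positive and of called pairs among all tested genes were not computed, so these pair counts have no background. Within groups the median r was 0.458 in M high fat, 0.238 in M chow, 0.471 in F high fat and 0.352 in F chow. After rescaling it was 0.270 in M high fat, 0.121 in M chow, 0.313 in F high fat and 0.205 in F chow. In each sex it was thus higher on high fat than on chow, a difference that was not tested. Within generation G11L1 the median r was 0.373 and within G11L2 it was 0.393.

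The level that the members shared, taken as the median over members of the log2 signal, had an SD of 0.153 in M high fat, 0.0956 in M chow, 0.158 in F high fat and 0.114 in F chow. After rescaling these SDs were 0.104, 0.0643, 0.116 and 0.0812 in the same groups. In both sexes the shared level thus varied more between mice on high fat than on chow, again with no test of the difference. Each of these correlations is over the same libraries, so what the members share includes the scale of each mouse. The shared level rose with the median-of-ratios factor of the mouse (r = 0.750, rho = 0.756, r = 0.755 without the 2 farthest mice, permutation p = 1e-05, adjusted p = 3.67e-05). The factor and the level are computed from the same values, and r was 0.349 after rescaling and 0.335 with quantile-normalized values. With the estimated depth r was 0.00263 (rho = -0.00740, adjusted p = 0.972).

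Signal of other liver cell types moved with the shared level too. The 6 Kupffer cell markers, genes of the resident macrophages of the liver, were negatively correlated with it (r = -0.497, rho = -0.475, r = -0.451 without the 2 farthest mice, permutation p = 1e-05, adjusted p = 3.67e-05 over 11 measures). After rescaling this r was -0.348, and it was -0.502 within G11L1 and -0.485 within G11L2. The summed Kupffer signal was 25.0 to 161 in M high fat (median 56.2), 21.6 to 92.2 in M chow (48.6), 27.0 to 157 in F high fat (79.6) and 35.9 to 262 in F chow (76.3). The 5 neutrophil markers had r = -0.436 (rho = -0.461, r = -0.439 without the 2 farthest mice, permutation p = 1e-05, adjusted p = 3.67e-05), and -0.259 after rescaling. Their summed signal was 0.428 to 3.36 in M high fat (median 1.17), 0.302 to 4.63 in M chow (0.784), 0.475 to 6.40 in F high fat (1.43) and 0.456 to 5.64 in F chow (1.08). The 8 hepatocyte markers had r = 0.309 (rho = 0.305, r = 0.323 without the 2 farthest mice, adjusted p = 2.20e-04), but 0.0461 after rescaling. The 8 pancreas acinar markers had r = 0.175 (rho = 0.156, r = 0.142 without the 2 farthest mice, adjusted permutation p = 0.0266), and 0.151 after rescaling. The 5 bile duct markers had r = -0.195 (rho = -0.162, r = -0.196 without the 2 farthest mice, adjusted permutation p = 0.0205), but -0.0393 after rescaling. The 6 stellate cell markers had r = -0.158 (rho = -0.117, r = -0.140 without the 2 farthest mice, adjusted permutation p = 0.0299 for r and 0.139 for rho), and -0.111 after rescaling. Within G11L1 and within G11L2 these 3 lists had r of -0.0871 and 0.283 for pancreas, -0.0416 and -0.324 for bile duct, and -0.0633 and -0.197 for stellate cells. None of the 3 was thus as large within G11L1 as over all mice. The 6 markers of sinusoidal endothelium had r = -0.0102 on the deposited scale (rho = 0.0450, adjusted p = 0.972) and -0.413 after rescaling. Of these lists 0 markers were at 0 in all mice, the summed hepatocyte markers had medians of 21900 in M high fat, 27700 in M chow, 25700 in F high fat and 29400 in F chow, and the part of other cells in the diet and sex differences was not tested.

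**Figure D5:**
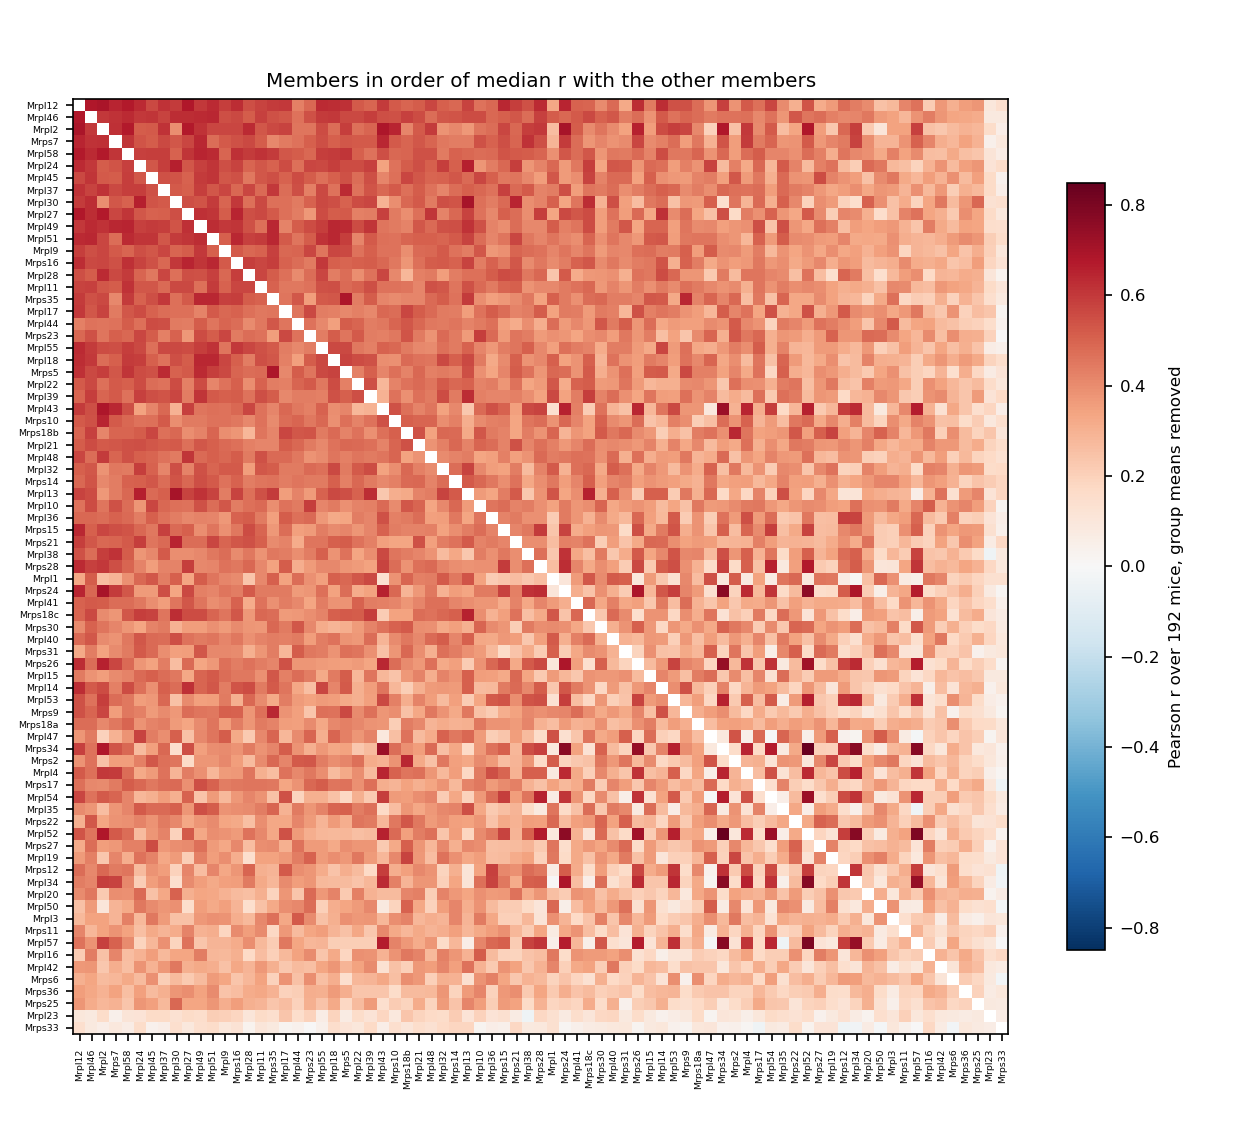
Pearson r between the 77 members over 192 mice on log2 signal with group means removed, with members ordered from the highest to the lowest median r. Red is positive and blue negative, and 99.7% of the 2926 pairs are positive. Mrpl12 heads the order with a median r of 0.517, and Mrpl23 and Mrps33 form the pale rows at its end with 0.127 and 0.0805. Both of these last rows ran against a partner row, and r of the summed rows is not shown.

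The medians of pairs across the 2 subunits overlapped those of pairs within the small subunit and lay below those within the large subunit on the deposited scale. Pairs within the large subunit had a median r of 0.409 for proteins with bacterial counterparts and 0.412 for mitochondria-specific ones, and 0.405 between these classes. Within the small subunit the medians were 0.374 for proteins with bacterial counterparts and 0.305 for mitochondria-specific ones. Between these small-subunit classes it was 0.339. Between large-subunit and small-subunit proteins with bacterial counterparts the median was 0.400, and the other medians across subunits were 0.396, 0.362 and 0.359. After rescaling, medians were 0.235 to 0.262 within the large subunit, 0.194 to 0.250 across subunits and 0.142 to 0.225 within the small. The mitochondria-specific class of the small subunit includes Mrps33. These differences were not tested.

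The most strongly correlated pair was Mrpl52, a mitochondria-specific protein of the large subunit, with Mrps34, a mitochondria-specific protein of the small subunit. Their r was 0.837 and rho was 0.832 (permutation p = 1e-05, adjusted p = 1.53e-05), r was 0.835 without the 2 farthest mice, and r was 0.815 after rescaling. Within groups r was 0.881 in M high fat, 0.811 in M chow, 0.818 in F high fat and 0.848 in F chow. The next pairs were Mrpl52 with Mrpl57 (r = 0.793, rho = 0.760), Mrpl57 with Mrps34 (0.773, 0.716), Mrpl34 with Mrpl52 (0.773, 0.705) and Mrps24 with Mrps34 (0.769, 0.749), each with an adjusted permutation p = 1.53e-05. Mrpl52 and Mrpl57 lie 3399325 bases apart on chromosome 14, and the other 4 pairs are on different chromosomes. Most of these members had a high GC content, 60.6% in the transcripts of Mrps34, 56.7% in Mrpl52, 58.3% in Mrpl34 and 55.1% in Mrps24, against a median of 50.5% over the members, while Mrpl57 had 42.3%. Across the other 76 members, r with Mrps34 went with GC content (r = 0.563 across genes, which are not independent replicates) and with transcript length by r = -0.181. Whether GC content plays a part in these pairs was not tested. At the other end were Mrps33 with Mrpl34, Mrps12 and Mrps17, Mrpl35 with Mrpl57, and Mrpl23 with Mrpl38. The r of these 5 pairs lay between -0.0369 and -0.0267 and their adjusted permutation p between 0.618 and 0.714. Mrps33 and Mrpl23 are the rows that ran against a partner row above, and r of the summed rows with other members is not given here. Their low r may thus not describe the genes themselves.

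Some members share a start region with a neighbouring gene that is read in the other direction. A divergent coding gene began within 1000 bases of 26 members, 24 of these neighbours were tested genes, and the median r with the neighbour was 0.181 on the deposited scale and 0.0688 after rescaling. Over 1585 other tested genes with such a neighbour the medians were 0.226 and 0.154, both above those of the members, a difference that was not tested. In 14 of the 24 the adjusted permutation p was under 0.05, and 13 of the 14 were positive, with the pair of members Mrpl46 and Mrps11 counted from each side. The share of called pairs among the 1585 other genes was not computed, so this count has no background. The highest were Mrpl2 with Klc4, a kinesin light chain (r = 0.592, rho = 0.555, 0.605 without the 2 farthest mice), and Mrpl36 with Ndufs6, a subunit of respiratory complex I (r = 0.583, rho = 0.549, 0.582 without the 2 farthest mice). Mrps27 with Ptcd2, a mitochondrial RNA-binding protein, had r = 0.558 (rho = 0.529, 0.522 without the 2 farthest mice), and Mrpl32 with Psma2, a proteasome subunit, had r = 0.551 (rho = 0.488, 0.531 without the 2 farthest mice). The adjusted permutation p of these 4 was 3.43e-05. After rescaling their r was 0.478, 0.489, 0.465 and 0.376 in the same order, and within each generation label all 4 lay between 0.482 and 0.686. The members Mrpl46 and Mrps11 face each other in this way and had r = 0.281 (rho = 0.257, 0.279 without the 2 farthest mice, adjusted permutation p = 2.67e-04). Starts were allowed to overlap by up to 500 bases. Other genes overlapped 12.2% of the exon bases of Mrpl46, the most by Mrps11, and 2.58% of those of Mrpl36, the most by Ndufs6. Whether shared reads enter these r was not tested. Mrpl49 ran against Fau, which encodes a cytosolic ribosomal protein (r = -0.208, rho = -0.144, -0.185 without the 2 farthest mice, adjusted permutation p = 0.00752), although the adjusted p of its rho was 0.0763.

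The genes outside the family whose median r with the members was highest were ranked over 14525 tested genes and 192 mice. Eif5a, a translation elongation factor, led with a median r of 0.533, followed by Ndufb7 (0.531), Mtx1 (0.524), Psmb6 (0.521), Grpel1 (0.518), Atp5g3 (0.514), Ndufs3 (0.514), Phb2 (0.512), Atp5j (0.508) and Atp5e (0.506). Ndufb7 and Ndufs3 are subunits of respiratory complex I, and Atp5g3, Atp5j and Atp5e are subunits of ATP synthase. After rescaling Ndufb7 ranked 1, Atp5e 2 and Eif5a 3, while Grpel1, a co-chaperone of protein import, ranked 32. With quantile-normalized values Ndufb7 again ranked 1 (median r 0.384), and Eif5a ranked 89 (0.296), so the place of Eif5a depends on the scale. The 79 tested nuclear subunits of oxidative phosphorylation had a median r of 0.596 among themselves and 0.415 with the members on the deposited scale, and 0.468 and 0.251 after rescaling. The 79 tested cytosolic ribosomal proteins had 0.167 among themselves and 0.202 with the members, and 0.146 and 0.118 after rescaling.

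The diet and sex differences of these 2 families were set beside those of the members. On the deposited scale 48 of 79 cytosolic ribosomal proteins were lower on high fat and 0 higher, and after rescaling 29 were lower and 0 higher, with medians of -0.14 and -0.06. With quantile-normalized values 6 were lower and 1 higher. Of the oxidative phosphorylation subunits 24 of 79 were lower and 2 higher on the deposited scale, and 4 were lower and 25 higher after rescaling, with medians of -0.04 and 0.04. With quantile-normalized values 0 were lower and 46 higher. All tested genes were lower in 41.9% and higher in 15.0% on the deposited scale, in 22.9% and 24.9% after rescaling, and in 25.2% and 20.9% with quantile-normalized values. The counts of both families thus moved with the scale. The members, with medians of -0.07 and 0.00, lay between the 2 families on both scales, and these differences between families were not tested. For M minus F, 47 of 79 cytosolic ribosomal proteins were higher and 0 lower on the deposited scale and 15 higher and 2 lower after rescaling, while of the oxidative phosphorylation subunits 46 were higher and 5 lower, and then 12 higher and 17 lower. For all genes these shares were 45.0% higher and 23.5% lower on the deposited scale, and 30.4% and 33.5% after rescaling. The interaction was negative in 28 of 79 cytosolic ribosomal proteins and 32 of 79 oxidative phosphorylation subunits on the deposited scale, and in 6 and 11 of them after rescaling, beside 6.92% and 2.10% of all genes. With quantile-normalized values it was negative in 5 and 14 of them, and for that scale the share of all genes is not given here.

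Of the 5 mitochondrial ribosome proteins with other symbols, 4 were lower on high fat on the deposited scale and 0 after rescaling, and 0 were higher on either. The counts of this and the next lists stand beside the 41.9% lower and 15.0% higher of all genes on the deposited scale, and the 22.9% and 24.9% after rescaling. Dap3, a GTP-binding protein of the small subunit, averaged 7.23 ± 0.837 (SD, n = 46) in M high fat and 7.94 ± 0.911 (SD, n = 48) in M chow, with a log2 difference of -0.13 over both sexes. Of 12 mitochondrial translation factors 8 were lower and 0 higher, and 5 lower and 1 higher after rescaling. The initiation factor Mtif2 averaged 7.27 ± 1.22 (SD, n = 46) in M high fat, 9.01 ± 1.13 (SD, n = 48) in M chow, 5.71 ± 0.823 (SD, n = 48) in F high fat and 6.25 ± 0.761 (SD, n = 50) in F chow, with a log2 diet difference of -0.22 and an M minus F difference of 0.43. Of 19 tRNA synthetases that act in mitochondria 14 were lower and 0 higher, and 7 lower and 2 higher after rescaling. The asparaginyl-tRNA synthetase Nars2 averaged 4.60 ± 0.901 (SD, n = 46) in M high fat, 5.64 ± 1.05 (SD, n = 48) in M chow, 2.91 ± 0.551 (SD, n = 48) in F high fat and 3.72 ± 0.654 (SD, n = 50) in F chow, with a diet difference of -0.32 and an M minus F difference of 0.62.

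Of 23 assembly factors of the mitochondrial ribosome 15 were lower on high fat and 0 higher on the deposited scale, and 7 lower and 2 higher after rescaling. They included Nsun4, an RNA methyltransferase (log2 difference -0.18), and the GTPase Mtg2 (-0.17). Of 12 genes for replication and transcription of mitochondrial DNA 8 were lower and 0 higher, and 3 lower and 0 higher after rescaling, and the mitochondrial RNA polymerase Polrmt differed by -0.19. Of 9 regulators of mitochondrial gene expression 7 were lower and 1 higher, and 4 lower and 2 higher after rescaling. Those included the factors whose words were searched in the windows, with Yy1 at -0.21, Gabpa at -0.22 and Nrf1 at -0.24 on the deposited scale, and at -0.13, -0.14 and -0.17 in the same order after rescaling. A list of 15 genes for mitochondrial chaperones and proteases also held the transcription factor Atf4. Of these 15 genes 8 were lower and 1 higher, and 6 lower and 3 higher after rescaling. Atf4 was among the lower ones, with a log2 difference of -0.28 on the deposited scale and -0.205 after rescaling. Clpx, the ATPase of the ClpXP protease, averaged 29.4 ± 11.0 (SD, n = 46) in M high fat, 47.6 ± 19.8 (SD, n = 48) in M chow, 22.8 ± 7.67 (SD, n = 48) in F high fat and 35.1 ± 14.6 (SD, n = 50) in F chow, a log2 difference of -0.62 on the deposited scale and -0.54 after rescaling. With quantile-normalized values the lower and higher members numbered 0 and 0 of the 5 ribosome proteins with other symbols, 5 and 2 of the translation factors, 8 and 1 of the tRNA synthetases and 9 and 1 of the assembly factors. They numbered 3 and 1 of the genes for mitochondrial DNA, 4 and 1 of the regulators, and 5 and 6 of the list that holds the chaperones, proteases and Atf4. The median r of these lists with the members ranged from 0.0795 for the regulators to 0.356 for the ribosome proteins with other symbols on the deposited scale, and from -0.0426 to 0.207 for the same lists after rescaling.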

How the data were processed

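RNA was extracted from 192 mouse livers, and mRNA libraries were read as single ends of 100 bases, per the labels. The deposited signal is 1 upper-quartile normalized value per gene and mouse, per the name of the authors' table. It combines 2 technical repeats and is not divided by gene length. CASAVA 1.8.0, GRCm38 and mm10 are named in the submitters' processing notes, while the aligner, counter and annotation are not given in the sources used here. Between 78.4% and 82.5% of low values lay within 0.1 of a whole read, too few for a count test.

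Genes with a value above 0 in at least 46 mice and a mean signal of at least 0.0629 were kept. Log2(signal + 0.0629), the pseudocount being 0.01 of the median upper quartile, was fitted with limma 3.58.1 (R 4.3.3, empirical Bayes with a trend) with group means and generation, and p-values were adjusted over 14602 genes at 0.05. Spread was tested as the absolute deviation from the group median. Correlations used values with group means removed and 100000 two-sided permutations within groups (Python 3.11.15, numpy 2.4.6). Both were tested on simulated data. Estimated depth was read from the smallest steps between values, and precision is limited by the number of mice and by counting error. Alternatives were other pseudocounts, filters, scalings, covariates, weights and sets of mice, a replicate block, and rows summed with a partner. Up to 10 called members per contrast and direction with the smallest p were named, with the extremes of level, spread and correlation. Members, gene lists and tests were chosen with earlier results of these data known. Promoter sequences are from RefSeq (GRCm38.p6), which held windows for 68 of the 77 members. No label says how cages or litters were shared.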

Additional observations from a re-analysis of the deposited data

Results flagged for a closer look

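The diet difference in males minus that in females, tested as an interaction on the deposited scale with limma, differed from 0 for the members below. In Mrpl9 it was -0.259 (adjusted p = 0.00111, and 0.00444 after median-of-ratios rescaling). In Mrpl30 it was -0.243 (adjusted p = 0.00127, and 0.00797 after rescaling). In Mrpl18 it was -0.215 (adjusted p = 0.00728, and 0.0344 after rescaling). These 3 were also called after quantile normalization.

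Another 7 members passed on the deposited scale but not after rescaling. The interaction was -0.212 in Mrpl38, -0.188 in Mrps23, -0.155 in Mrpl24, -0.203 in Mrps18b, -0.207 in Mrpl15, -0.149 in Mrpl17 and -0.171 in Mrps10. After rescaling it was -0.151 in Mrpl38, with an adjusted p of 0.0519 by limma, and its adjusted p in the other 6 lay between 0.0753 and 0.231. Among G11L2 mice alone 0 members passed for the interaction on the deposited scale.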

How the results depend on the processing

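Members higher on high fat numbered 5 on the deposited scale, 19 on the median-of-ratios scale and 20 with quantile-normalized values, and members lower numbered 41, 9 and 9. Members higher in males numbered 56, 27 and 25, members lower in males 3, 11 and 14, and members with a negative interaction 12, 3 and 3. For M minus F and the interaction, shares of all tested genes with quantile-normalized values are not given here. The median diet difference of the members changed sign, to 0.00496 after rescaling and 0.0124 after quantile normalization, and their median pairwise r fell to 0.229 and 0.242. In G11L1 mice alone 2 members were higher and 22 lower on high fat and 1 was lower in males. In G11L2 mice alone 2 were higher on high fat, 36 were higher in males, 0 had a negative interaction and 1 was more spread in males. No share of all tested genes is given beside the counts within a generation, or beside those under the settings named next. With no filter on low values and with array weights 3 members were higher on high fat, and without the 10 least correlated mice 1 was lower in males. For these changes the cause was not tested, beyond there being fewer mice in a single generation. Of 173 recomputed values that answer a comparison, 149 were labelled unchanged. For a count or the median pairwise r this meant staying within 1.5 times. For the median diet and M minus F differences it meant keeping their sign and moving by less than 0.132, the SD of the shared level. That tolerance is larger than either median, so these labels say little beyond the sign.

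Among 779 recomputed values of single members and pairs, 701 kept direction and side, 59 lost the call, 4 gained it, 2 moved and 13 changed sign. In G11L1 mice alone r became 0.0987 for Mrps33 with Mrpl34, 0.0136 for Mrps33 with Mrps12, 0.00302 for Mrpl35 with Mrpl57, 0.0357 for Mrps17 with Mrps33 and 0.00688 for Mrpl23 with Mrpl38. There too the diet difference of Mrpl23 became 0.111, its M minus F difference 0.077 and its interaction 0.031, and the interaction of Mrps33 became 0.026. With a pseudocount 10 times smaller the M minus F difference of Mrpl23 was 0.011. In sums with the partner row, which were chosen after seeing the data, the diet difference was -0.022 for Mrps33, and for Mrpl23 it was 0.063 after rescaling. The cause of these changes was not tested. The generation covariate was never part of the correlations, and array weights and robust moderation apply to the limma fits of level alone.

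Males and females share mouse numbers in their labels. Over the 92 numbers with both sexes, the correlation of their deviations from group means had a median of 0.0105. The range was -0.171 to 0.316, and 10 of 92 exceeded 0.1. For most numbers the male and the female were thus little alike in these deviations. A low correlation cannot show whether mice of the same number shared a cage or litter, which no label gives and which was not tested. With the number as a block, 56 members were higher and 3 lower in males, and 0 had a positive and 10 a negative interaction. Shares of all tested genes with this block are not given here. With the block the median M minus F difference was 0.123, and the M minus F difference of Mrpl23 was 0.067.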
